A study of Drosophila melanogaster with 3 samples.

Results

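The binding of GFP-tagged Chiffon was described at 39 cell cycle regulator genes of Drosophila melanogaster, out of 13945 protein-coding genes on the main chromosome arms. The members were chosen by gene symbol, and all 39 symbols were matched in the gene annotation. They were grouped as 10 regulators of the G1 to S transition, 11 of mitotic entry, 7 of the checkpoints and 11 of chromosome segregation. Chromatin was taken from mixed-sex whole embryos collected from 0 to 24 h, from a transgenic line that stably carries Chiffon (the product of transcript chif-RA) with GFP at its C-terminus, and precipitated with an antibody against GFP (ChIP-seq). There was 1 group, of 3 biological replicates, and no second genotype, time point or treatment, so the binding at these genes was described and set beside that at all protein-coding genes, with no test. The tagged protein is a transgene product, the embryos mix all cell types and stages of that window, and a peak does not say in which cells the protein was bound.

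Eukaryotic cells divide when cyclins switch on cyclin-dependent kinases: G1 and S phase cyclins release E2F transcription factors from retinoblastoma proteins and start DNA replication, and mitotic cyclins with Cdk1 drive entry into mitosis. Checkpoint kinases hold this sequence when DNA is damaged or chromosomes are not attached to the spindle, and the anaphase-promoting complex ends mitosis by destroying cyclins and the securin that guards sister chromatids. The fly embryo begins with rapid maternal cycles without gap phases, and zygotic control of Cdc25 (string) later sets when each cell divides. Chiffon is related to Dbf4, the activating subunit of the Cdc7 kinase that fires replication origins, and is best known for its part in amplification of the chorion genes in the ovary.

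The deposited lists give, for each region, a signal value (the authors' score for its strength), a q-value and a summit, the base with the highest signal. A member was called bound when the summit of a peak in the list of reproducible peaks (IDR, the irreproducible discovery rate procedure) lay within 500 bp of any of its annotated start sites. Reproducible is used here as the name of that list, and all 3684 of its peaks are also in the list made from the pooled replicates. Of the 3684, 2178 overlapped a region among the 3684 strongest of every replicate. Signal values are not comparable between replicates, or between a replicate and the pooled list, so ranks (1 is the strongest) are given within each list. At the strongest promoter peak of each bound member, the reproducible and pooled lists give the same signal value. The sequence under the summit is shown first for 2 of the promoter peaks that were among the strongest regions of every replicate, those of aurA (Aurora A, the centrosomal mitotic kinase) and Bub3 (a spindle checkpoint protein). Those of Cdk1 (the mitotic kinase itself) and of the intronic peaks of E2f1 and grp were added after their values were seen, to show a weak promoter peak and 2 peaks away from the genes' own start sites. All are from the RefSeq Release 6 (dm6) genome, 5′ to 3′ on the strand of the gene, and reach up to 100 bases on each side of the summit. Capitals mark a match to a CHR-type element (TTTGAA, or TTCAAA when read on the other strand) or a TATA-type element (TATAAA, or TTTATA on the other strand).
aurA, chr3R:11962954-11963153, + strand: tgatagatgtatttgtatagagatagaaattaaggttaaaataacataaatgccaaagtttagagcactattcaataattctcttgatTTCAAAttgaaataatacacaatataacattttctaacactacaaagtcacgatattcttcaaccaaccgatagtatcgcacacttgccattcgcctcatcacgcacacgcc
Bub3, chr3R:29675444-29675644, − strand: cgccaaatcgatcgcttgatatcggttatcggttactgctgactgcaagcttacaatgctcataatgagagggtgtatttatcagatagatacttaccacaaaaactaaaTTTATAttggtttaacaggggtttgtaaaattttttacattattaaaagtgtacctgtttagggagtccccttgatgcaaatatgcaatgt
Cdk1, chr2L:10386318-10386518, − strand: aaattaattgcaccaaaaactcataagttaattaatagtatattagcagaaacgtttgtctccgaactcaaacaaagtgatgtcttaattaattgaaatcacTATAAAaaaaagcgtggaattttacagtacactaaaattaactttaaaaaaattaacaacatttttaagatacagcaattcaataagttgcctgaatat
E2f1 intron, chr3R:21641648-21641848, − strand: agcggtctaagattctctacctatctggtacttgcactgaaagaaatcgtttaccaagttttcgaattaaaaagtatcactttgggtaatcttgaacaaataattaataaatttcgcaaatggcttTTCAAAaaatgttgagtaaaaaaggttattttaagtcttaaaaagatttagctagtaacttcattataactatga
grp intron, chr2L:16684247-16684447, + strand: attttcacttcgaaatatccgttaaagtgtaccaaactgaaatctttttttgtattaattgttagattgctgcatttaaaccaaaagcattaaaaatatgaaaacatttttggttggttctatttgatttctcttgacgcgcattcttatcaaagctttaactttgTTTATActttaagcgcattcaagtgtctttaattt
The shown windows are rich in A and T: G and C made up 32.5% of the aurA window, 35.3% of that of Bub3, 24.9% of that of Cdk1, 28.4% of that of E2f1 and 27.9% of that of grp. Over the promoter summits of the members the mean GC content was 36.6%, beside 36.8% over all reproducible summits.

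Of the 39 members, 9 (23.1%) had a reproducible promoter peak, beside 15.0% of all protein-coding genes. They were Dp among the G1 to S regulators (1 of 10), Cdk1, polo and aurA at mitotic entry (3 of 11), lok, BubR1 and Bub3 among the checkpoint genes (3 of 7), and SMC2 and barr in chromosome segregation (2 of 11). For 4 members (10.3%), 1 in each phase, the peak also overlapped a region among the 3684 strongest of all 3 replicates, where 3684 is the number of reproducible peaks: Dp, aurA, Bub3 and SMC2. That share lay next to the 9.73% of all protein-coding genes, so the members were not set apart from the genome by it. The peaks of Cdk1, aurA, lok, Bub3, SMC2 and barr each had another gene's start site within 500 bp of the summit. Such a peak cannot be assigned to either gene, so bound names only the call at these members.

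Over the weaker regions the members and the genome differed more. In the list made from the pooled replicates, taken at any strength, 32 members (82.1%) had a summit within 500 bp of a start site, beside 45.1% of all genes. The authors label this list as peaks and background, as input for IDR, so a region in it need not be a binding site. Many of these regions are weak by the authors' own q-value: 5297 of the 25066 had one of at most 0.05. With that limit, chosen after the data were seen, 16 members (41%) and 19.9% of all genes remained. The 32 were 9 of 10 G1 to S regulators, 10 of 11 of mitotic entry, 7 of 7 checkpoint genes and 6 of 11 of chromosome segregation. The median signal of the strongest pooled promoter region, with 0 for a gene with none, was 62.4 over the members and 0.0 over all genes, 7662 of which had none. By phase it was 60.6 for G1 to S, 64.1 for mitotic entry, 79.2 for the checkpoints and 44.7 for chromosome segregation.

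**Figure D1:**
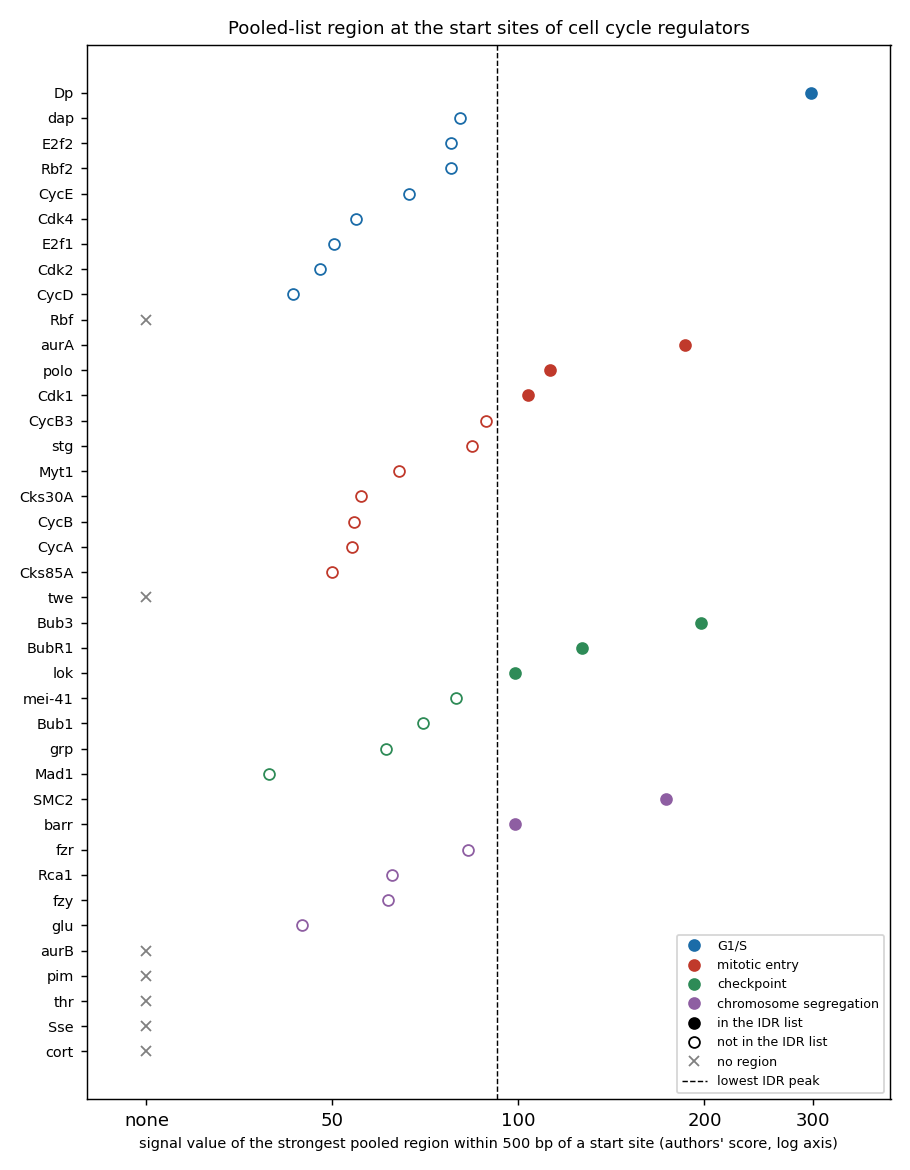
Signal value (the authors' score, log axis) of the strongest pooled-list region within 500 bp of a start site, 1 row per member, coloured by phase; filled points are in the reproducible list, open points are not, crosses are members with no region, and the dashed line is the weakest reproducible peak (92.4). Dp stands highest at 296.9, and 5 of the 7 members with no region are in chromosome segregation.

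The 3 replicates were read separately. Among the 3684 strongest regions, a promoter region of replicate 1 was found at 9 members (23.1%, beside 14.2% of all genes), of replicate 2 at 6 (15.4%, beside 15.3%) and of replicate 3 at 6 (15.4%, beside 14.4%). The mean was 17.9% ± 4.44 of the members (SD, n = 3) and 14.6% ± 0.596 of all genes. The members' excess was thus smaller than their own spread between replicates and lay mainly in replicate 1. Rank 3684 is not the same strength in each replicate. At polo, the −log10 q-value was 1.28 at rank 2422 of replicate 1, below the 1.3 of a q-value of 0.05. It was 2.64 at rank 3722 of replicate 2 and 3.0 at rank 3538 of replicate 3. At any rank, replicate 1 had a region at 24 members (61.5%, beside 38.1% of all genes), replicate 2 at 35 (89.7%, beside 50.4%) and replicate 3 at 34 (87.2%, beside 50.5%). Here the members lay above the genome in each replicate.

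**Figure D2:**
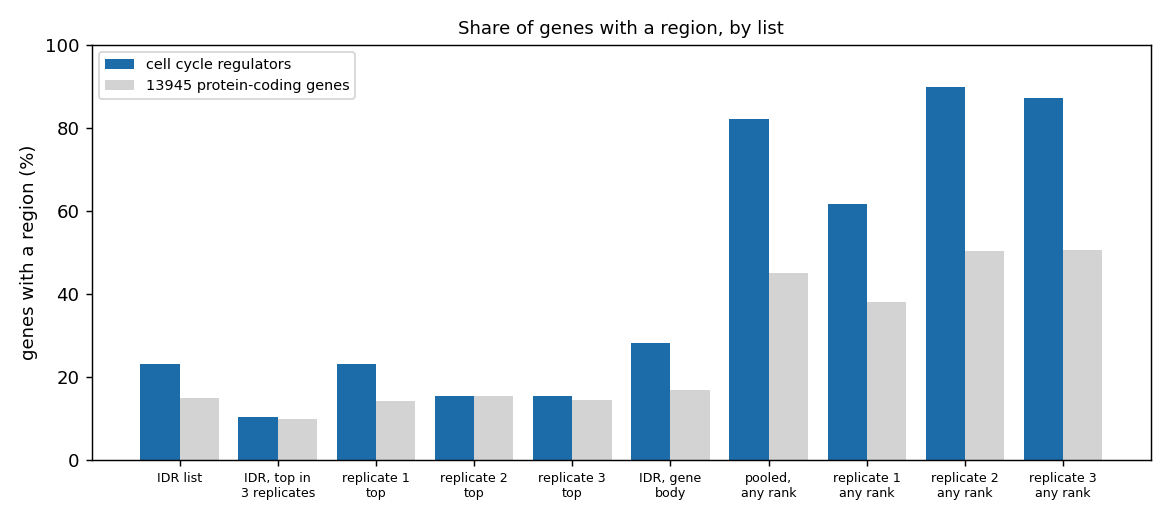
Percentage of the cell cycle regulators (blue) and of all protein-coding genes (grey) with a region within 500 bp of a start site, or in the gene body for the bar so named; top means among the 3684 strongest regions of a replicate. The bars of members and genome are of nearly equal height for the strongest regions of replicates 2 and 3 (15.4% beside 15.3% and 14.4%) and far apart for regions of any rank (82.1% beside 45.1% in the pooled list).

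Dp, the dimer partner through which the E2F proteins bind DNA, was the member with the strongest binding and the only one with more than 1 reproducible promoter peak. Its strongest peak (chr2R:13223218-13223613, in an intron of the gene) had a signal value of 296.9 and rank 467 of 3684, with the summit 175 bp upstream of a start site. Its ranks in replicates 1, 2 and 3 were 214, 704 and 777, with signal values of 125.8, 90.0 and 80.7. The summits of the replicates fell within 39 bp of each other, and all 3 libraries placed the peak among their strongest regions.

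The other Dp peaks flank the first. The peak at chr2R:13223799-13224194 (signal 189.3, rank 1130) had its summit 406 bp downstream of a start site and ranks of 1186, 1145 and 1053 in the 3 replicates. The third, at chr2R:13222198-13222593 (183.9, rank 1197), lay 37 bp upstream of another start site of Dp, in the overlapping end of Fsn, an F-box gene on the opposite strand, and 58 bp upstream of an internal start site of that gene. Its ranks were 1025, 1134 and 1830. A peak so close to start sites of both genes cannot be assigned to either.

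The remaining G1 to S regulators had no reproducible promoter peak. Pooled regions with a q-value of at most 0.05 were found at dap, the inhibitor of CycE–Cdk2 (signal 80.5, rank 4553), at E2f2, the repressing E2F (77.9, rank 4770), and at Rbf2, a retinoblastoma protein (77.8, rank 4778). The signal was 66.5 at CycE, the S phase cyclin, 54.6 at Cdk4 and 43.1 at CycD, its G1 cyclin partner, 50.3 at E2f1, the activating E2F, and 47.8 at Cdk2, the partner of CycE. Rbf, the main retinoblastoma protein, had no pooled region, only weak regions in replicate 1 (14.6) and replicate 2 (15.5). Within 500 bp of a start site, CycE was the only member outside the 9 with a region among the strongest of any replicate, at rank 3382 in replicate 2 (signal 38.3), against 13893 in replicate 1 and 20333 in replicate 3. Cdk4 had a reproducible peak just beyond the window, 624 bp upstream of its nearest start site (chr2R:16578648-16579043, signal 155.0, rank 1632).

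At mitotic entry the bound genes were 3 kinase genes, and none of the cyclin genes had a reproducible promoter peak. Of the 3, only polo had a peak with no other gene's start site within 500 bp of the summit. The aurA peak (chr3R:11962856-11963251) had a signal of 186.1 and rank 1167, and its summit lay 70 bp upstream of aurA and 249 bp upstream of CG3281, which is transcribed away from it. In the replicates its signal was 63.3, 73.9 and 46.8, at ranks 911, 1026 and 2176. The sequence under this summit holds 1 CHR-type element and ends in the first bases of the transcript.

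The peaks of polo and Cdk1 were weaker. At polo, the Polo kinase of mitosis, the peak (chr3L:20309744-20310139) had a signal of 112.3 and rank 2740, with its summit 105 bp upstream of the nearest start site, in the 5′ UTR of a longer transcript. The replicate ranks were 2422, 3722 and 3538, on both sides of the limit of 3684, and the summits fell within 15 bp. At Cdk1 (chr2L:10386220-10386615) the signal was 103.8 and the rank 3066, with the summit 156 bp upstream of Cdk1 and 244 bp upstream of mRpS7, a mitochondrial ribosomal protein gene. Its replicate ranks were 2357, 4884 and 3469, and its summits spread over 98 bp.

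CycB3, a B-type mitotic cyclin, was the member just outside the reproducible list: its pooled region had a signal of 88.5 and rank 3940, against 92.4 for the weakest reproducible peak and 98.8 for lok and barr just inside. In the replicates CycB3 had signals of 16.9, 34.0 and 28.4, at ranks 20101, 4105 and 5193. The string gene (stg), the Cdc25 phosphatase that activates Cdk1, followed with a pooled signal of 84.1, its summit 406 bp upstream. Its replicate signals were 27.1, 24.8 and 28.4, at ranks 4593, 7187 and 5187, and the summit in replicate 2 was 497 bp downstream while the others were over 400 bp upstream.

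The other mitotic entry genes were lower. Myt1, the kinase that inhibits Cdk1, had a pooled signal of 64.1, and CycB and CycA, the main mitotic cyclins, had 54.2 and 53.7 and no region in replicate 1. The Cdk-binding proteins Cks30A and Cks85A had 55.7 and 49.9. No pooled region was found at twe, the meiotic Cdc25, which had a weak region in replicate 2 alone (14.4). CycB lay closest to a very strong peak: 3356 bp downstream of its nearest start site, outside any annotated gene, was the peak of rank 38 (chr2R:22802812-22803104, signal 832.6), ranked 43, 40 and 32 in the replicates.

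Of the 7 checkpoint genes 3 were bound, but with each peak given only to the gene with the nearest start site BubR1 alone remained. At Bub3 the peak (chr3R:29675346-29675741) had a signal of 197.4 and rank 1047, and its replicate signals were 43.0, 82.0 and 70.6, at ranks 1745, 850 and 1010. Its summit lay 123 bp upstream of Bub3 and 107 bp upstream of Cap-D2, a condensin subunit on the opposite strand, so it is nearer to Cap-D2. The gap between these start sites is 230 bp.

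BubR1, the spindle checkpoint kinase that acts with Bub3, had a peak with a signal of 126.8 and rank 2278 (chr2R:5974322-5974717), its summit 135 bp upstream. Replicates 1 and 2 ranked it 1710 and 2156 and replicate 3 lower, at 6000 (signals 43.6, 50 and 26.3). The kinase gene lok (Chk2) shared its peak with barr, the kleisin subunit of condensin: the start sites are 52 bp apart, and the summit lay 205 bp upstream of lok and 153 bp downstream of the start of barr, in its 5′ UTR. That peak (chr2L:20061019-20061414) had a signal of 98.8 and rank 3303, the lowest among the members, and ranked 1895, 3815 and 4592 in the replicates. It was among the strongest regions of replicate 1 only.

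The other checkpoint genes all had a pooled region. The signal was 79.2 at mei-41, the ATR kinase, with signals of 28.5, 29.5 and 19.2 in the replicates, and 70.1 at Bub1, the kinetochore kinase. It was 61.0 at the promoters of grp (Chk1) and 39.5 at Mad1, the kinetochore anchor of Mad2, the lowest value among the members with a region. The authors' q-value for the Mad1 region was 0.086 as −log10, where a q-value of 0.05 is 1.3.

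In chromosome segregation the bound genes were condensin subunits. SMC2, a core ATPase of condensin, had a peak (chr2R:14852530-14852925) with a signal of 173.3 and rank 1338, 75 bp upstream of SMC2 and 213 bp upstream of Ercc1, a DNA repair endonuclease gene on the opposite strand. The replicate signals were 49.7, 56.6 and 57.2, at ranks 1378, 1722 and 1521, so all 3 libraries held it among their strongest regions. With barr and, outside the members, Cap-D2 (197.4) and Cap-H2 (205.0), 4 of the 7 condensin subunit genes examined had a reproducible promoter peak. The share was 15.0% over all genes and 29.3% over those with an opposite-strand protein-coding start site within 500 bp, as SMC2, barr and Cap-D2 have. Of the 4 condensin peaks each had another gene's start site within 500 bp, Ercc1 at SMC2, lok at barr, Bub3 at Cap-D2 and MED7 at Cap-H2. The partner of SMC2, glu (SMC4), had a pooled signal of 44.7, and Cap-D3 and Cap-G had no pooled region.

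Of the other segregation genes, 5 had no pooled promoter region: pim (securin), thr (a separase partner), Sse (separase), cort (a meiotic activator of the anaphase-promoting complex) and aurB (Aurora B, the kinase of the chromosomal passenger complex). At pim and cort no replicate had a region at any rank. The mitotic activators of the same complex did have regions, with signals of 82.7 at fzr (Cdh1) and 61.5 at fzy (Cdc20), and Rca1, an inhibitor of fzr, had 62.4. At fzr the summit lay 480 bp upstream and replicate 1 had none.

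**Figure D3:**
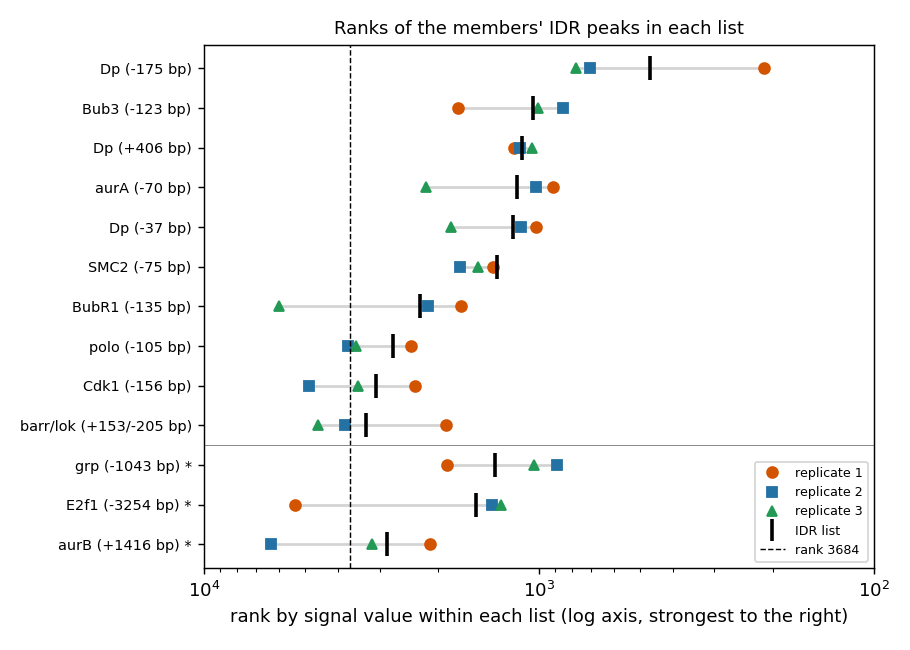
Rank of each reproducible peak of the members in the 3 replicate lists (coloured symbols) and in the reproducible list (black bar), on a log axis with the strongest to the right; the dashed line is rank 3684, and peaks below the horizontal line, starred, lie in or at the gene but not within 500 bp of its start sites. The downstream Dp peak has the tightest ranks (1186, 1145 and 1053), while E2f1 runs from 5378 in replicate 1 to 1297 in replicate 3.

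The 10 promoter peaks of the 9 members had a median signal of 178.6, beside 144.7 over all 3684 reproducible peaks. Of the 10, 6 ranked above the middle of the list, and 6 overlapped the strongest regions of all replicates, as did 2178 of the 3684. The members' peaks lay where those of other genes lay: the summit was upstream in 8 of 9 members (88.9%), beside 89.2% of all bound genes. The median position was −123 bp for the members and −130 bp for all.

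**Figure D4:**
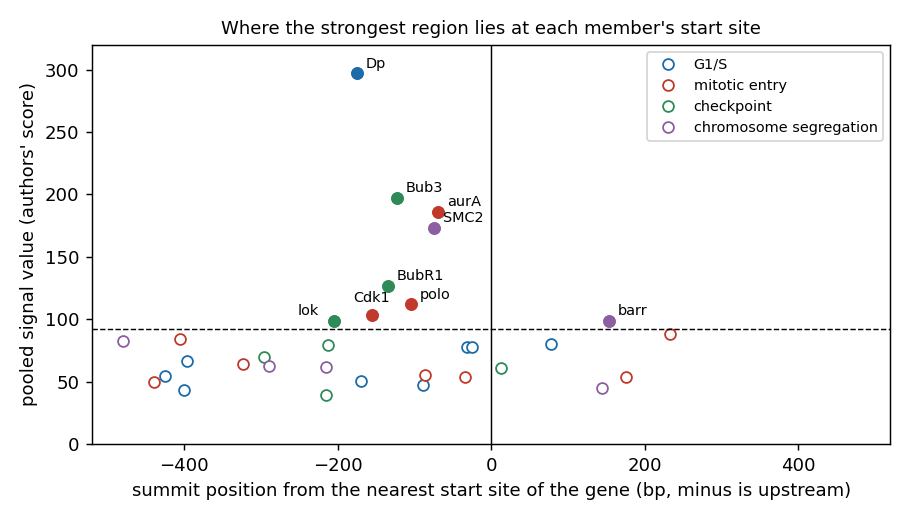
Signal value of the strongest pooled region at each member (authors' score) against the position of its summit from the nearest start site of the gene (bp, negative is upstream); filled points are in the reproducible list, the dashed line marks its weakest peak, and members with no region are left out. The filled points lie between 205 bp upstream (lok) and 153 bp downstream (barr), and the open points between 480 bp upstream (fzr) and 233 bp downstream (CycB3).

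Many of the members sit head to head with another gene, that is, with an opposite-strand protein-coding start site within 500 bp. This held for 19 of the 39 (48.7%), beside 27.8% of all genes, and for 7 of the 9 bound members (77.8%), beside 54.3% of all bound genes. Among the 19 head-to-head members 7 (36.8%) were bound, and among the other 20 members 2 (10%), polo and BubR1. Over all protein-coding genes the same shares were 29.3% and 9.52%, so within each class the members were near the genome. For pooled regions of any rank, 84.2% of head-to-head members and 80% of the others had one, beside 67.6% and 36.4% of all such genes.

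Within the gene bodies, 11 members (28.2%) overlapped a reproducible peak, beside 16.8% of all genes. These were 8 of the 9 bound members, all but lok, with E2f1, grp and aurB. The summit itself lay inside the gene in 5 (12.8%, beside 9.85% of all genes), E2f1, Dp, polo, grp and barr. It also lay over 500 bp from every start site in 2 (5.13%, beside 6.55%), E2f1 and grp, so the members' share was no longer above that of the genome. The E2f1 peak (chr3R:21641550-21641945, signal 160.4, rank 1547) is intronic, 3254 bp upstream of the nearest start site of E2f1. Replicate 1 ranked it 5378, and the other two 1388 and 1297, and the summits spread over 235 bp, the widest spread among the members.

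At grp the peak (chr2L:16684149-16684544, 171.8, rank 1357) is intronic, 1043 bp upstream of an own start site and 339 bp upstream of CG31807, with ranks of 1884, 888 and 1038 in the replicates. It was thus among the strongest regions of all 3. The peak at aurB (chr2L:10856480-10856875, 108.6, rank 2849) overlaps only the 3′ end of the gene, and its summit lies outside it, 34 bp upstream of the start of Dnz1. In all, 68 pooled regions had their summit in a member's body, 35 in introns, 20 in coding exons, 12 in 5′ UTRs and 1 in a 3′ UTR. Only 6 were reproducible, 4 in introns and 2 in 5′ UTRs.

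Members without a reproducible promoter peak were 30 in number. A region within 500 bp was found in all 3 replicates at 14 of them, in 2 at 10, in 1 at 4 and in none at 2. The distance from their start sites to the nearest reproducible summit ranged from 624 bp (Cdk4) to 86444 bp (Cdk2), with a median of 10783 bp, and was within 5000 bp for 6. For other genes without such a peak these counts and distances are not given here, so they do not set the members apart.

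The letters of known promoter elements were searched on both strands from 250 bp before to 50 bp after each start site, and a match is only a match of letters. The DRE (TATCGATA, read by DREF, an activator of replication and growth genes in flies) was in 9 members (23.1%), beside 10.2% of all genes, and core promoter motif 1 (GGTCACACT) was in 10 (25.6%), beside 6.78%. Motif 7 (CATCNCTA) was in 7 (17.9%), beside 7.44%, and an E2F element (TTTCCCGC or TTTGGCGC) in 4 (10.3%), beside 5.05%. The CHR, searched as TTTGAA, was in 16 (41%) beside 46.1%, and the TATA-type element, searched with the letters TATAAA, was in 19 (48.7%) beside 51.2%. The element of the GAGA factor, searched with the letters GAGAGA, was in 6 (15.4%) beside 17.1%, and the E-box, CACGTG, in 1 member, Dp (2.56%), beside 5.3%. Matches for DRE, motif 1 and E2F are given as examples, 1 from a bound member (Bub3) and the others from members that were not bound, in windows of 30 bases from the same genome, with the matched letters in capitals and the position of the first matched base counted from the start site as 0.
Bub3 (bound), DRE at −23, chr3R: aatatgcaatgTATCGATAgtgatatcgaa
Rbf2 (not bound), DRE at −41, chr3R: taagtatcagcTATCGATAagccagctaaa
Cdk2 (not bound), DRE at −61, chr3R: taaggaattctTATCGATAtgtggcgctgc
CycA (not bound), DRE at −11, chr3L: acgccacgaccTATCGATAgctggacagtg
mei-41 (not bound), DRE at −19, chrX: gctgccaaacaTATCGATAgccacaagtgc
CycB3 (not bound), motif 1 at −56, chr3R: cgccgcggtacGGTCACACTgcaggccgca
Myt1 (not bound), motif 1 at 6, chr3L: ctgtccgatatGGTCACACTcgcccactca
fzy (not bound), motif 1 at −8, chr2L: tagccgatgcGGTCACACTacatttccaaa
aurB (not bound), motif 1 at −1, chr2L: ttctagcatgcGGTCACACTaatctcagca
CycE (not bound), E2F at −91, chr2L: gatccgcctgtTTTGGCGCgttcctcatgc
stg (not bound), E2F on the other strand at −13, chr3R: taaaagctcgcGCGCCAAAatcagtggcct
Of the 9 bound members, 2 held a DRE (BubR1 and Bub3), 1 held motif 1 (SMC2) and 0 an E2F element. Within 100 bp of the summit of each bound member's strongest peak, 8 peaks with that of lok and barr counted once, CHR letters were found at 3 (37.5%, beside 30.6% of all reproducible summits), TATA letters at 2 (25%, beside 31.7%) and motif 1 at 1 (12.5%, beside 1.6%). The DRE and the other letters searched were found at 0 of the 8, too few peaks to set against 3.37% of all summits for the DRE. The Bub3 window printed first ends where its DRE begins.

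**Figure D5:**
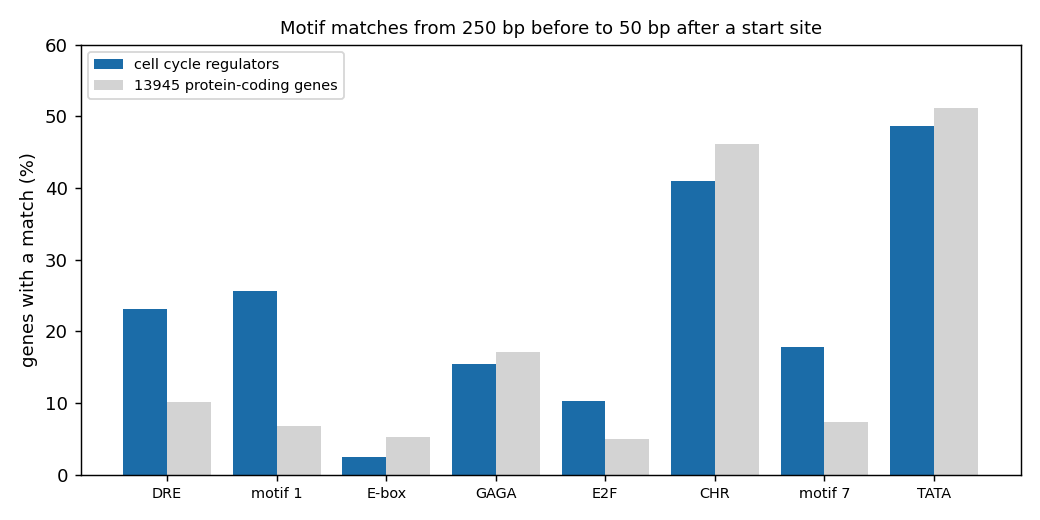
Percentage of the cell cycle regulators (blue) and of all protein-coding genes (grey) whose promoter window, from 250 bp before to 50 bp after a start site, holds each motif on either strand. The blue bar is higher than the grey for DRE, motif 1, E2F and motif 7 and lower for the E-box, GAGA, CHR and TATA.

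Over all protein-coding genes, those with a match were bound more often for each of the 8 motifs searched, those that were not more frequent in the members included. Both a match and a bound call were taken over any start site, so genes with more start sites had more chances of each. The part this plays was not tested. The shares with and without were 32.5% and 13.6% for motif 7, 23.5% and 14.1% for the DRE, 22.2% and 14.6% for the E-box and 21.7% and 14.5% for motif 1. They were 19.8% and 14% for GAGA, 19.5% and 14.8% for E2F, 17% and 13.3% for CHR and 15.7% and 14.3% for TATA. For pooled regions of any rank the shares were 67.4% and 42.5% for DRE and 65.7% and 43.6% for motif 1. Among the members, 8 of the 9 with a DRE and 8 of the 10 with motif 1 had a pooled region, near the share of all members (32 of 39, 82.1%).

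Beyond the members, 107 further cell cycle genes in 12 groups were examined with the same window. A reproducible promoter peak was found at 23 of them (21.5%, beside the 15.0% of all genes), and 68 (63.6%, beside the 45.1%) had a pooled region. At 10 of the 107 the peak also overlapped the strongest regions of all 3 replicates, as it did at 9.73% of all genes. Of the 23, 13 peaks had the start site of another gene within 500 bp of the summit and cannot be assigned to either gene. They were those of pds5 (with Mppe), dmt (trbd), SA1 (Gas41), mts (Rack1), gwl (PGS1), Cdc16 (orb) and Incenp (Br140). The others were those of nbs (defl), Sas-4 (gfzf), gammaTub23C (Rrp1), plu (RpS18), Cap-D2 (Bub3) and Cap-H2 (MED7). The strongest was at pds5, a cohesin regulator (signal 440.1, rank 182, and ranks 224, 120 and 294 in the replicates), followed by p53 (233.3), which acts in the DNA damage response. In cohesin 3 of 10 genes were bound, with dmt (dalmatian, 150.6) and SA1 (a cohesin subunit, 135.5) after pds5, all 3 at shared peaks. Of the DNA damage genes 3 of 12 were bound, p53, nbs (of the double-strand break sensor complex, 147.3) and Claspin (an adaptor of Chk1, 133.9), each among the strongest regions of all replicates.

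In the remaining groups, bound counts stand beside 15.0% of all protein-coding genes and 29.3% of head-to-head genes with a reproducible promoter peak. The groups are small and no test was run. Mitotic kinases and phosphatases had 4 of 9 bound, led by mts (the catalytic subunit of phosphatase 2A, 185.5), gwl (the Greatwall kinase, 113.9) and tws (a regulatory subunit of phosphatase 2A, 102.3). Centrosome genes also had 4 of 9, led by Sas-4 (145.5) and cnn (141.0), needed for centrioles and for the material round them, and gammaTub23C (γ-tubulin, 140.6). The kinetochore and spindle checkpoint genes had 3 of 17, nod (107.2), cmet (101.7) and mad2 (97.9). The anaphase-promoting complex had 1 of 11, Cdc16 (167.4), and the other cyclins and Cdks had 1 of 12, CycH (100.9). The tws and CycH peaks overlapped no region of replicate 1, and those of mad2 and CycH were among the strongest of only 1 replicate. The same held for wdb (97.7) and asl (97.1), the remaining bound genes of the kinase and phosphatase group and of the centrosome group. In each of these groups only 1 of the 4 bound genes, mts and gammaTub23C, had a peak among the strongest regions of all replicates. Incenp (103.6) was bound among the 3 chromosomal passenger partners, and plu (164.5), at a start site region shared with RpS18, among the 5 regulators of the embryonic cycles. No reproducible promoter peak was found at the 7 further genes of the dREAM complex, which represses cell cycle genes and also contains the members Dp, E2f2, Rbf and Rbf2, of which Dp was bound. Nor was one found at the 8 genes of SCF and cullin ligases, which degrade G1 regulators. A pooled region was found at 4 (57.1%) of the former and 7 (87.5%) of the latter, beside 45.1% of all genes.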

How the data were processed

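ChIP-seq with an antibody against GFP was done on 3 biological replicates, fragmented by sonication (size range 200 to 800 per the labels). The authors deposited lists of regions on dm6 with a signal value (a score), a −log10 q-value and a summit: 30000 regions for each replicate, 25066 from the pooled replicates, each called against a control library, and 3684 reproducible (IDR) peaks derived from these. For the caller, aligner and IDR cut-off the sources used here give nothing, the depth is unknown, and the control library was not analysed here. No 2 replicates shared a region with identical coordinates. Summits were set against start sites of Ensembl release 115 (BDGP 6.54) and sequences were read from the RefSeq genome, with Python 3.11.15, numpy 2.4.6 and pandas 2.3.3; the code was tested on simulated regions. All members were accounted for, and up to 3 bound genes with the highest signal were named for each further group. The genes wdb and asl were added for their replicate ranks. The members and lists were chosen with earlier results of these data known. Peak lists on dm3 were not used. Windows, peak strength, assignment, start sites and replicates were varied.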

Additional observations from a re-analysis of the deposited data

How the results depend on the processing

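No test was run, so the alternatives show only how the counts move. The 9 members with a reproducible promoter peak were 9 with a 250 bp window, 10 with 1000 bp, which adds Cdk4, and 7 when each peak went to its nearest gene alone, which loses lok and Bub3. With only the stronger peaks of the list (1842), 4 members remained, losing Cdk1, polo, lok, BubR1 and barr, and 8.63% of all genes. The members found in all replicates numbered 4 to 6 with a replicate left out, and the mean count per replicate was 6 to 7.5. Without replicate 2, Cdk1 and polo were added to the 4. With 7368 strongest regions per replicate 9 members were found in all and the mean was 17.7, and with 1842 the mean was 4. With the summit required inside the gene 5 members (12.8%, beside 9.85% of all genes) had a peak in the body, and 2 (5.13%, beside 6.55%; E2f1 and grp) when it also had to lie over 500 bp from every start. Head-to-head pairs within 250 bp left 4 of the 9. A q-value of at most 0.05, chosen after seeing the data, left 16 of the 32 members with a pooled region. The read depth is unknown, so what it limits cannot be given.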
